A study of Mus musculus with 31 samples.

Results

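The XY gonads of 4 genotypes were used to ask whether losing Ctnnb1 and Sox9 together changes gene expression by more or less than the sum of losing each gene alone. These groups hold 15 of the 31 arrays of the series, and the matching XX groups hold the other 16. Each array measured the RNA of a single pair of mouse gonads at embryonic day 14.5, freed from the mesonephros, and each such pair is 1 biological replicate. Every embryo carried 1 copy of the Sf1-cre transgene (Sf1-cre+/Tg), a driver of Cre recombinase in gonadal somatic cells and the adrenal, and had at least 1 floxed allele of each gene. The control was Ctnnb1+/f; Sox9+/f, so it also carries Cre and 1 conditional allele of each gene, and it is not wild type. The Ctnnb1 knockout (Ctnnb1KO) was Ctnnb1f/f; Sox9+/f, the Sox9 knockout (Sox9KO) was Ctnnb1+/f; Sox9f/f, and the double knockout (DKO) was Ctnnb1f/f; Sox9f/f. Control, Ctnnb1KO and Sox9KO had 4 arrays each and DKO had 3, and these numbers of arrays limit the precision. In the 2 single knockouts the other gene is left with 1 floxed and 1 intact allele. Germ cells do not express Sf1 and keep both genes.

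SOX9 is the transcription factor that directs supporting cells of the fetal gonad to become Sertoli cells, which then signal to Leydig, peritubular and germ cells. Beta-catenin, the product of Ctnnb1, carries the canonical WNT signal that RSPO1 and WNT4 raise in the fetal ovary, where it sustains pregranulosa genes such as Fst. These pathways oppose each other in the supporting cell lineage.

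The interaction is the change of DKO from control minus the sum of the changes of Ctnnb1KO and Sox9KO, on log2(signal + 16), where signal is the array's brightness for a gene. A value of 0 means that the single losses add up, and a value of 1 means that DKO lies 2-fold above their sum. Equivalently, it is the effect of Ctnnb1 loss without Sox9 minus its effect with Sox9. Errors of log2 values are SE from a limma fit, and a gene was called at a Benjamini-Hochberg adjusted p under 0.05 over 11779 genes. The scale cannot fall below log2(16), so the change of a group near background is understated. An interaction can then be too small. It can also be too large, because DKO cannot follow a sum of single losses that falls below the scale.

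Each array has a trimmed mean of 500, so likeness in overall brightness was fixed beforehand. Median signals were 120.6 to 167.8 over the XY arrays, and XY DKO replicate 3 had the lowest of all 31 arrays. The lowest correlation of each XY array with another array of its group was 0.9666 to 0.9838 over all genes tested. The value of 0.9666 was that of XY DKO replicates 3 and 4. Sox9 signal was 857, 839.7, 1025 and 995 in control, 649, 847, 844 and 648 in Ctnnb1KO, 7.1, 32.3, 10.8 and 41.7 in Sox9KO, and 34.5, 8.6 and 34.9 in DKO. The Sox9KO and DKO arrays all lay below all control and Ctnnb1KO arrays, and Sox9 itself showed no called interaction (0.45 ± 0.64, adjusted p = 0.733). Ctnnb1 averaged 12798 ± 470.1 in control, 13247 ± 497 in Ctnnb1KO, 12887 ± 658 in Sox9KO and 12486 ± 1239 in DKO (SD), with no called change. Another probe set was as flat (-0.05 ± 0.13), and the weakest averaged 1663 ± 50.9, 1677 ± 34.3, 1838 ± 456 and 1316 ± 65.8 in the same order, with an interaction of -0.46 ± 0.15. The sources used here do not say whether these probe sets lie in the deleted part, so they check no label. The somatic gonad markers Nr5a1, Wt1 and Gata4 were present in every group, with lowest group means of 1515, 1964 and 2344. Of 6 listed mesonephric markers, 5 had a probe set of 1 gene symbol and 3 of these passed the expression filter. Pax2, Gata3 and Cdh16 did not enter the test, and not all of them were measured. In XX Ctnnb1KO, replicate 4 had neither Xist nor Y-linked signal. It does not enter the XY contrast, only the shared estimate of spread, and without it 1143 XY interactions were called.

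The double loss departed from the sum of the single losses for 1152 of 11779 genes (9.78%). DKO lay above the sum for 622 of them (5.28%) and below it for 530 (4.5%), by at least 2-fold for 264 and 200. The median interaction was -0.03 over all genes, 0.878 over the genes above and -0.868 over those below. At an unadjusted p under 0.05 there were 2681. The single contrasts, which share the same arrays, had very different numbers of called genes. Ctnnb1 loss alone changed 8 genes (0.0679%), Sox9 loss alone 4558 (38.7%), double loss against control 2032 (17.3%), and double loss against Sox9 loss 2573 (21.8%). For the 622 genes above the sum, the median change from control was -0.019 in Ctnnb1KO, -0.864 in Sox9KO and -0.064 in DKO. For the 530 below it, these medians were 0.053, 0.927 and 0.156. The median DKO change was nearer to 0 than the median Sox9KO change in both sets. The genes were picked on the interaction, which uses the same DKO and Sox9KO arrays. This ordering was therefore partly set by the choice of genes.

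**Figure D1:**
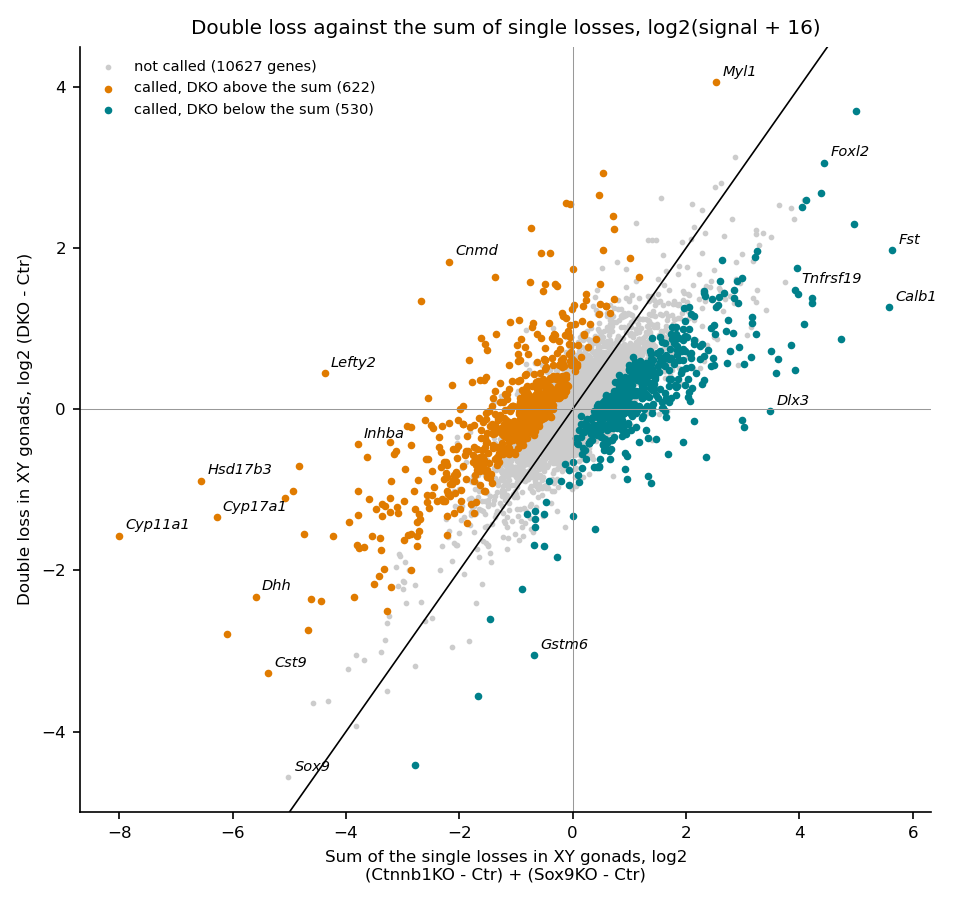
Change of XY DKO from XY control (vertical axis, log2) against the summed changes of XY Ctnnb1KO and XY Sox9KO (horizontal axis, log2) for 11779 genes. The black diagonal marks additive loss; 622 called genes (orange) lie above it and 530 (teal) below it, and genes that were not called are grey.

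The position of the DKO arrays was counted without a test. Called genes were picked on values of the same arrays, so shares that differ from those of all genes are in part built in. All 3 DKO arrays lay strictly between all control and all Sox9KO arrays for 343 called genes (29.8%), against 642 of all genes (5.45%). They lay above all 12 other XY arrays for 132 called genes (11.5%), against 293 of all genes (2.49%), and below all 12 for 55 (4.77%), against 146 of all genes (1.24%). The other 622 called genes fell in no such class. For 1 gene, Gdnf, the sum of the single losses lay below what the scale can show. Its signal averaged 179.6 in control, 134 in Ctnnb1KO, 2.37 in Sox9KO and 44.8 in DKO. Gdnf encodes a growth factor that Sertoli cells supply to germ cells, and it was singled out after its values were seen.

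Sertoli cell and testis genes departed upward or not at all. Of 22 measured members, 10 lay above the sum of the single losses and 0 below it, where 5.28% of all genes were called above and 4.5% below. The median interaction was 0.57, against -0.03 over all genes, and counts and medians of the later lists are to be read against the same values. The largest was Hsd17b3, the enzyme that turns androstenedione into testosterone and that fetal Sertoli cells express. Hsd17b3 signal was 2693, 2398, 2932 and 2600.3 in control, 2644, 2278, 2378 and 2209.9 in Ctnnb1KO, 5.4, 22.7, 8.4 and 33.7 in Sox9KO, and 1492, 1153 and 1682 in DKO. The 3 DKO arrays lay below all control and Ctnnb1KO arrays and far above all Sox9KO arrays, whose signals were near background. The interaction was 5.67 ± 0.37 (adjusted p = 3.15e-12). Dhh encodes the hedgehog ligand by which Sertoli cells instruct Leydig cells. Its signal was 2269, 2313, 2394 and 2015 in control, 2192, 2199, 1844 and 1938 in Ctnnb1KO, 27.2, 41.7, 27.5 and 48.7 in Sox9KO, and 391, 449 and 468 in DKO. DKO again lay between the other groups without overlap, but lower in that gap than for Hsd17b3, with an interaction of 3.27 ± 0.25 (adjusted p = 6.36e-11). Cst9, a cystatin gene of Sertoli cells, read 5597, 6907, 5913 and 6843 in control, 6016, 5736, 5048 and 5851 in Ctnnb1KO, 141, 162, 202 and 119 in Sox9KO, and 578, 531 and 833 in DKO. Every DKO array was above every Sox9KO array and below every control, and the interaction was 2.10 ± 0.21 (adjusted p = 2.47e-08).

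The other 7 Sertoli and testis genes above the sum were Hsd17b1, an enzyme of oestradiol and testosterone synthesis (2.82 ± 0.46), Ptgds, the prostaglandin D synthase (2.27 ± 0.33), Cyp26b1, the retinoic acid-degrading enzyme (2.05 ± 0.30), Vnn1 (1.59 ± 0.22), Sox8 (1.35 ± 0.26), Etv5 (1.24 ± 0.29) and Inhbb, the activin beta B subunit (1.13 ± 0.19). Vnn1 differed from the graded genes. Its signal was 1584, 1621, 1903 and 1639.8 in control, 1844, 1687, 1549.9 and 1360.5 in Ctnnb1KO, 612, 634, 822 and 658 in Sox9KO, and 2022, 2142 and 1781 in DKO. The lowest DKO array lay within the control range, the others lay above it, and all were above Sox9KO. Ptgds averaged 8284 in control, 343 in Sox9KO and 1614 in DKO, and lost its call on the unlogged signal. Sox8, a close relative of Sox9, averaged 649 in control, 443 in Ctnnb1KO, 79.2 in Sox9KO and 153 in DKO (adjusted p = 0.000576). Sox8 was the single called member among 12 measured genes of the SOX family, whose median interaction was 0.18, a count near the 9.78% of all genes called in either direction.

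The remaining 12 Sertoli and testis genes did not pass the test. Tesc, which encodes a calcium-binding protein, read 1771, 1725, 1876 and 1517 in control, 1357, 1442, 1289 and 1268 in Ctnnb1KO, 84.2, 94, 89.4 and 116 in Sox9KO, and 125, 103 and 149 in DKO. DKO and Sox9KO overlapped, both far below control, and the interaction was 0.69 ± 0.23 (adjusted p = 0.0594). Tesc was called above the sum in 7 alternatives, among them XY arrays alone (adjusted p = 0.0154), quantile normalization (0.0383), a pseudocount of 64 (0.0324) and the unlogged signal (9.55e-05). For Aard, a gene of unknown molecular role used as a Sertoli marker, the signals were 5917, 7573, 6681 and 6578 in control, 4250.2, 5732, 4861 and 5411 in Ctnnb1KO, 1218, 1361, 1473 and 1053 in Sox9KO, and 714, 666 and 784 in DKO. Here DKO lay below every other XY array, including Sox9KO, with an interaction of -0.40 ± 0.19 (adjusted p = 0.201). On the unlogged signal it turned to 1069 (adjusted p = 0.0463). Amh, the hormone that removes the Mullerian duct, averaged 215 in control, 12.5 in Sox9KO and 16.3 in DKO (0.45 ± 0.55, adjusted p = 0.688). In whole gonads, fewer cells of a type and less RNA per cell cannot be told apart.

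Genes of fetal Leydig cells, which make androgen, held the largest departure of all. Of 10 listed genes, 6 had a probe set of 1 gene symbol, and Insl3, Lhcgr, Fdxr and Hsd3b6 were not measured. All 6 measured members lay above the sum, with a median of 1.65. Cyp11a1, the enzyme that starts steroid synthesis by cleaving the cholesterol side chain, read 7629, 7766, 8268 and 7943 in control, 10363, 7484, 7907 and 7829.7 in Ctnnb1KO, 13.2, 6.6, 4.4 and 38.5 in Sox9KO, and 2986, 2526 and 2483 in DKO. DKO lay between the groups, well below control, while Sox9KO was at background, and the interaction was 6.44 ± 0.45 (adjusted p = 1.33e-11). A weaker probe set of Cyp11a1 went the other way, with means of 176.5 in control, 200.7 in Ctnnb1KO, 228.2 in Sox9KO and 86.8 in DKO (-1.50). The next enzyme gene, Cyp17a1, read 12393, 13188, 15238 and 11693 in control, 20699.7, 13033, 12134 and 13244 in Ctnnb1KO, 131, 117, 167 and 134 in Sox9KO, and 6680.4, 5084 and 4011 in DKO. All 3 DKO arrays were below all controls and above all Sox9KO arrays, with an interaction of 4.94 ± 0.37 (adjusted p = 6.36e-11) that was not called on the unlogged signal. Star, which moves cholesterol into the mitochondrion, read 4053, 3600.3, 4003 and 3711 in control, 6438, 5447, 5718 and 4504 in Ctnnb1KO, 387, 311, 268 and 248 in Sox9KO, and 1597, 1527 and 1850.4 in DKO. DKO was between control and Sox9KO without overlap (1.89 ± 0.18, adjusted p = 5.12e-09), and the other probe sets gave 1.85 and 2.36. On the unlogged signal Star turned to -330.2 (adjusted p = 0.552), its Ctnnb1KO mean of 5527 lying above the control mean of 3842. Hsd3b1, Scarb1 and Fdx1 lay above the sum by 1.4 ± 0.25, 0.61 ± 0.13 and 0.50 ± 0.16.

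Genes of the adrenal cortex, which makes steroids with partly the same enzymes, mostly departed upward too. Of 4 measured adrenal genes, Cyp11b1 (2.47 ± 0.43), Cyp21a1 (1.96 ± 0.54) and Mc2r, the ACTH receptor (1.35 ± 0.28), lay above the sum, and Mrap, which encodes a partner of that receptor, was not called (-0.92 ± 0.33, adjusted p = 0.0769). Mrap was called below the sum with XY arrays alone (adjusted p = 0.00933), on the unlogged signal (0.0261) and without XY Sox9KO replicate 2 (0.0453). Cyp21a1 lost its call without XY DKO replicate 4 or XY Sox9KO replicate 4, with an adjusted p of at most 0.051, and when its probe sets were averaged, and Cyp11b1 on the unlogged signal. The summed signal of the list was 1126 to 1339 in control, 1061 to 1495 in Ctnnb1KO, 271 to 354 in Sox9KO and 461 to 672 in DKO. Cyp11b2, the aldosterone synthase gene, did not enter the test. The part of adrenal-like cells in the steroid result was not tested.

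Interstitial genes that receive the hedgehog signal departed upward in part. Of 8 measured members 5 lay above the sum and 0 below, with a median of 0.57. Gli1, a transcription factor induced by hedgehog signalling, read 661, 484, 656 and 557 in control, 689, 549.8, 516 and 569 in Ctnnb1KO, 58.5, 7, 35.9 and 56.5 in Sox9KO, and 257, 236 and 295 in DKO. DKO formed a separate middle group, and the interaction was 2.48 ± 0.42 (adjusted p = 0.000117). The hedgehog receptor gene Ptch1 departed less (0.57 ± 0.13), with means of 6354, 2089 and 2869.6 in control, Sox9KO and DKO. Hhip, another hedgehog-induced gene that binds the ligand, was not called (0.57 ± 0.33, adjusted p = 0.308), and averaged 589 in control, 46.1 in Sox9KO and 54 in DKO. On the unlogged signal Hhip was called above the sum (adjusted p = 0.00188). Pdgfra, a growth factor receptor of interstitial progenitors, read 4748, 6855, 5388 and 4849 in control, 5624, 5489, 4712 and 5827 in Ctnnb1KO, 2335, 2219, 2708 and 2149 in Sox9KO, and 5211, 5762 and 5119.7 in DKO. Its DKO arrays lay within the control range and above all Sox9KO arrays (1.19 ± 0.17, adjusted p = 7.41e-06). In the smooth muscle list, Acta2 (0.72 ± 0.17) and Myh11 (0.90 ± 0.17) of 5 measured genes lay above the sum, although Myh11 lost its call when its probe sets were averaged. Of 16 genes of the extracellular matrix, Vcan (1.15 ± 0.18), Nid1 (0.63 ± 0.08), Nid2 (0.60 ± 0.13) and Lamb1 (0.52 ± 0.09) did, with a list median of 0.14.

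Genes of activin, AMH, BMP and Nodal signalling departed in both directions. Of 21 measured genes, 9 lay above the sum and 4 below. Inhba, the activin beta A subunit, read 2614, 2490.4, 2289.9 and 2080.5 in control, 2913, 1982, 2272 and 1986 in Ctnnb1KO, 157, 196, 182 and 126 in Sox9KO, and 1721, 1806 and 1695 in DKO. DKO lay below all control and Ctnnb1KO arrays and far above Sox9KO, and the interaction was 3.36 ± 0.21 (adjusted p = 2.12e-12). Its binding partner Inha lay above the sum by 1.33 ± 0.18. Fst encodes follistatin, which binds and blocks activin. Fst signal was 67.5, 74.3, 54.6 and 69 in control, 79.2, 116, 93.5 and 70.5 in Ctnnb1KO, 3243, 3608, 3121 and 2866 in Sox9KO, and 319, 270.1 and 331 in DKO. Sox9KO was high, DKO was several-fold lower yet above every control and Ctnnb1KO array, and the interaction was -3.67 ± 0.19 (adjusted p = 6.71e-15); a weaker probe set gave -4.20. This ligand subunit and the inhibitor departed from additivity in opposite directions. Bmp2, a ligand of the fetal ovary, and the BMP-responsive genes Id1 and Id3 lay below the sum by 1.47 ± 0.21, 0.70 ± 0.19 and 1.03 ± 0.17.

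Nodal and its feedback inhibitors, which fetal germ cells express in the testis, had mean DKO signals above control. Lefty2, an extracellular inhibitor of Nodal, read 1450.0, 1786, 1856 and 1498 in control, 1444, 1817, 1239.5 and 1546 in Ctnnb1KO, 69.7, 92.2, 62.6 and 62.4 in Sox9KO, and 2582, 2797 and 1554 in DKO. DKO overlapped control, with replicate 4 the lowest of the 3, and Sox9KO was far below, giving an interaction of 4.83 ± 0.23 (adjusted p = 4.26e-15). Lefty1, the related inhibitor, averaged 175 in control, 164 in Ctnnb1KO, 13.3 in Sox9KO and 438 in DKO (4.01 ± 0.48). Nodal itself read 241, 362, 279 and 127 in control, 133, 272, 206 and 286 in Ctnnb1KO, 76, 110.0, 64.4 and 54 in Sox9KO, and 493, 529.6 and 350.4 in DKO. The DKO arrays overlapped control only through control replicate 2, and the interaction was 2.51 ± 0.36 (adjusted p = 1.22e-05). The coreceptor gene Tdgf1 was also above the sum (2.63 ± 0.53), and these 4 were the called members of 6 measured fetal male germ cell genes, against which Piwil4 (0.43) and Tdrd9 (-0.21) were not called. Pan-germ cell genes gave 0 called of 15, with a median of 0.65, and the same list had a median of 0.61 for the XX interaction. With XY arrays alone, Dppa5a, Nanog and Prdm14, genes of pluripotent and germ cells, were called above the sum (adjusted p = 0.0328, 0.023 and 0.0415), and Dppa5a and Nanog were also called on the unlogged signal (0.022 and 0.0279). Dppa5a was called too without XY control replicate 4 or XY DKO replicate 4, and Nanog without XY Sox9KO replicate 2. The summed signal of the whole pan-germ cell list was 17945 to 23078 in Sox9KO and 18907 to 39638 in DKO, against 20948 to 27909 in control. The part of germ cell signal in the Nodal family result was not tested.

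Meiosis genes leaned the other way. Of 18 measured members 4 lay below the sum, 0 above, and the median was -0.98; all 18 values were negative. Rec8, a meiotic cohesin, read 211, 219, 189.9 and 176 in control, 206, 238, 214 and 278 in Ctnnb1KO, 2648, 3086, 2705 and 3045 in Sox9KO, and 724, 948 and 517 in DKO. DKO lay between control and Sox9KO without overlap, with replicate 4 the lowest, and the interaction was -2.20 ± 0.23 (adjusted p = 7.4e-08). Stra8, the retinoic acid-induced gene that starts meiosis, read 284, 213, 256 and 165 in control, 95.3, 122, 192 and 136 in Ctnnb1KO, 5395, 4939.9, 5743 and 6632 in Sox9KO, and 1729, 2613 and 530.1 in DKO. DKO spread widely here, replicate 4 being far below the others, and the interaction was not called (-1.36 ± 0.47, adjusted p = 0.0672). It was called below the sum with the replicate block (-1.41, adjusted p = 0.0253), with a pseudocount of 64 (0.0346), on the unlogged signal (0.00361) and without XY DKO replicate 3 (-1.83, adjusted p = 0.00872). Meioc (-1.54 ± 0.45), Mei1 (-2.05 ± 0.62) and Dmc1 (-1.56 ± 0.50) passed, but each lost its call when XY DKO replicate 4 was left out, at adjusted p-values of 0.114, 0.0883 and 0.152. Over the 15 omissions of 1 XY array, Meioc lost it 2 times (also without XY control replicate 2), Mei1 7 times and Dmc1 11 times. All 3 also lost it on the unlogged signal and Mei1 and Dmc1 after quantile normalization. Mei1 further lost it with a pseudocount of 64, and Dmc1 without a filter and without a trend. The summed meiotic signal was 29077 to 44708 in Sox9KO, 9896 to 25116 in DKO and 7395 to 8638 in control. Among retinoic acid genes, Cyp26b1, whose enzyme keeps retinoic acid from germ cells, lay above the sum and Crabp1 below it (-0.88 ± 0.25), out of 9 measured; Crabp1 lost its call without XY DKO replicate 4 or XY Sox9KO replicate 4 (adjusted p of at most 0.0965).

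Pregranulosa and ovary genes departed downward. Of 17 measured members, 13 lay below the sum, 0 above, and the median was -1.38. Foxl2, the granulosa cell transcription factor, read 53.4, 60.8, 38.4 and 51.2 in control, 35, 38.7, 62.8 and 53.3 in Ctnnb1KO, 1621, 1530.4, 1745 and 1225 in Sox9KO, and 590.0, 588 and 448 in DKO. DKO lay between the mean of 1531 in Sox9KO and that of 50.9 in control, with no overlap, and the interaction was -1.38 ± 0.23 (adjusted p = 6.8e-05). Wnt4, the ovarian WNT ligand, read 659, 669, 626 and 744 in control, 854, 633, 709.7 and 787 in Ctnnb1KO, 1872, 2056, 1932 and 2278 in Sox9KO, and 756, 629 and 776 in DKO. In contrast to Foxl2, DKO overlapped control and Ctnnb1KO, and the interaction was -1.61 ± 0.17 (adjusted p = 5.55e-08). Kitl, the ligand of the germ cell receptor Kit, read 1037, 1165, 1058 and 1420.0 in control, 859, 895, 938 and 878 in Ctnnb1KO, 5228, 4935, 4663 and 4158 in Sox9KO, and 1383, 1188 and 1457 in DKO. Its DKO arrays also overlapped control (-1.44 ± 0.16, adjusted p = 3.17e-07). The homeobox genes Irx3 (-2.67 ± 0.24), Irx5 (-0.98 ± 0.26), Msx1 (-2.55 ± 0.24) and Msx2 (-3.12 ± 0.55) all lay below the sum, as did Runx1 (-1.28 ± 0.22), Gng13 (-1.19 ± 0.25) and the cell cycle inhibitor gene Cdkn1b (-1.20 ± 0.16).

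Rspo1 lay on the other side of 0. It encodes the secreted protein that amplifies WNT signalling in the ovary. Rspo1 signal was 661, 663, 624 and 678 in control, 689, 783, 746 and 777 in Ctnnb1KO, 2697, 2513, 2778 and 2151 in Sox9KO, and 3697, 3578 and 4560.4 in DKO. Every DKO array lay above every Sox9KO array, and these above all control and Ctnnb1KO arrays, but the interaction did not pass (0.45 ± 0.15, adjusted p = 0.0515). It was called above the sum in 7 alternatives: on the unlogged signal (adjusted p = 0.019), with the mean of probe sets (0.0479), with a pseudocount of 64 (0.0453), and without XX Ctnnb1KO replicate 4 (0.0345), XY DKO replicate 3 (0.0385), XY Sox9KO replicate 1 (0.0474) or XY Sox9KO replicate 3 (0.0419). Lhx9 (0.41), Nr0b1 (-0.25) and Fzd1 (-0.02) did not pass either. Foxl2 and Kitl here, and the list members outside the 4 of lowest adjusted p in other lists, were named after their values were seen. Fst, Bmp2 and Lgr5 complete the 13.

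**Figure D2:**
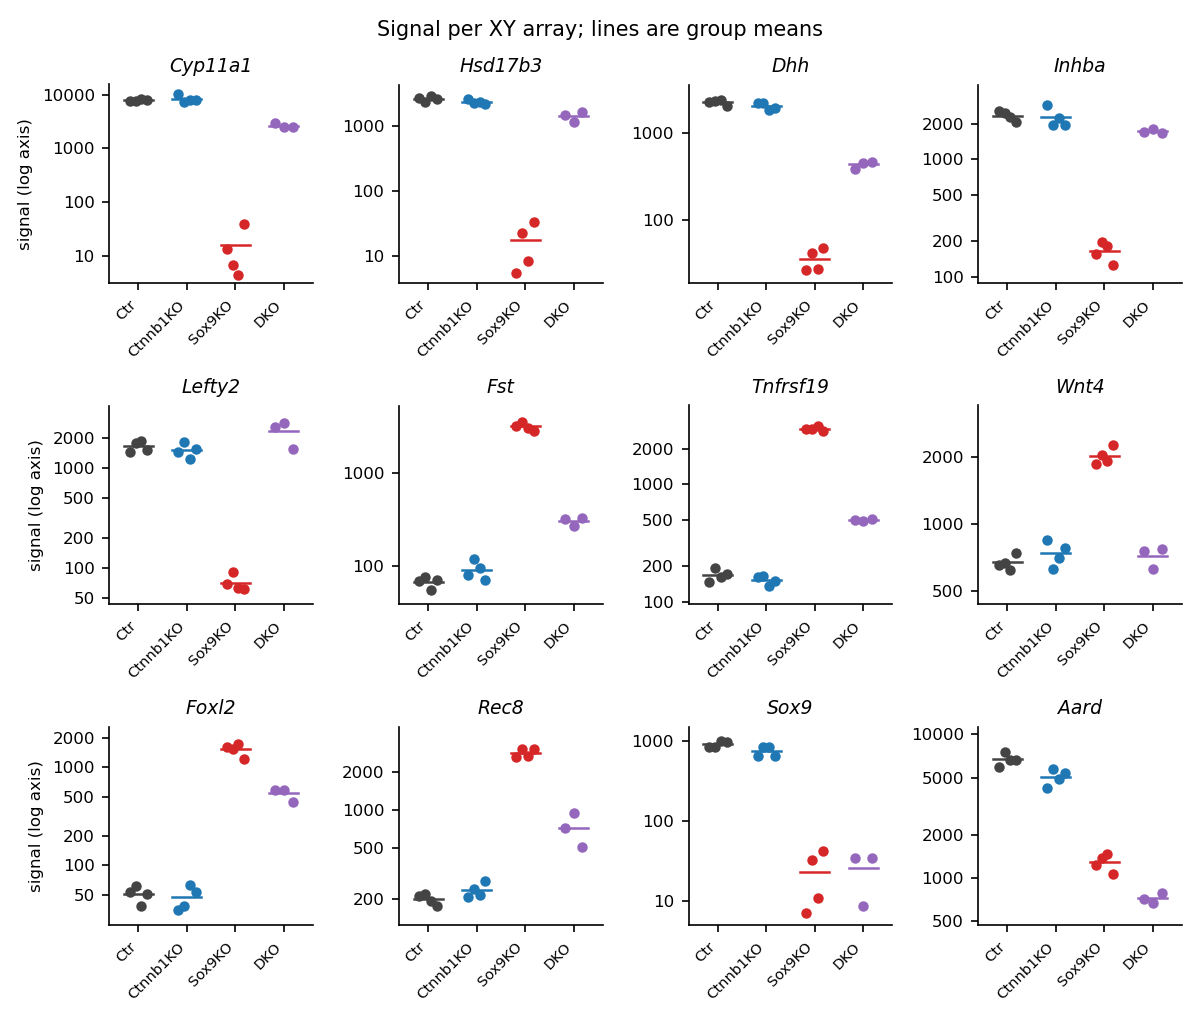
Signal of 12 genes in each of the 15 XY arrays (vertical axis, log scale) for control, Ctnnb1KO, Sox9KO and DKO; points are arrays and lines are group means. DKO lies between the other groups for Cyp11a1, Hsd17b3, Dhh, Inhba, Fst, Tnfrsf19, Foxl2 and Rec8, overlaps control for Lefty2 and Wnt4 and Sox9KO for Sox9, and is below all other arrays for Aard.

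Canonical WNT target and feedback genes, which beta-catenin with TCF/LEF factors is known to induce, gave 6 of 11 measured members below the sum and 0 above, with a median of -0.83. Tnfrsf19, a receptor gene of this class, read 146, 193, 162 and 172 in control, 164, 166, 136 and 151 in Ctnnb1KO, 2989.6, 2992, 3145 and 2832 in Sox9KO, and 498, 486 and 506 in DKO. The DKO arrays were tightly grouped, far below Sox9KO and above every control and Ctnnb1KO array, and the interaction was -2.44 ± 0.13 (adjusted p = 5.03e-14). The other probe sets gave -1.85 and -2.52. Axin2, the feedback inhibitor often used as a readout of the pathway, read 789, 515, 597 and 634 in control, 547, 524, 544 and 535 in Ctnnb1KO, 1626, 1569, 1479.5 and 1479.7 in Sox9KO, and 758, 742 and 676 in DKO. DKO overlapped control and was below all Sox9KO arrays (-0.85 ± 0.18, adjusted p = 0.00152). Rnf43 (-1.84 ± 0.34), Apcdd1 (-0.98 ± 0.24), Nkd1 (-0.83 ± 0.19) and Nkd2 (-1.06 ± 0.20), all encoding inhibitors of WNT signalling, also lay below the sum. For Nkd2, the DKO mean of 292 was below those of control (425), Ctnnb1KO (377) and Sox9KO (695). Lef1, which encodes a TCF/LEF factor, was not called (-0.66 ± 0.26, adjusted p = 0.109), but was with XY arrays alone (adjusted p = 0.0191) and on the unlogged signal (0.0376).

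Among 17 measured WNT ligands, receptors and secreted modulators, 4 lay above the sum and 4 below. The R-spondin receptor gene Lgr5 averaged 70.5 in control, 30.9 in Ctnnb1KO, 1002 in Sox9KO and 112 in DKO, with an interaction of -2.14 ± 0.23. It was among the 8 genes changed by Ctnnb1 loss alone (-0.86 ± 0.16, adjusted p = 0.0101). The ligand genes Wnt4, Wnt2b (-1.33 ± 0.21) and Wnt6 (-0.59 ± 0.17) also lay below the sum. Above it lay Wnt5a (0.74 ± 0.21), the receptor gene Fzd7 (0.59 ± 0.15) and the WNT-binding antagonists Sfrp1 (0.67 ± 0.19) and Sfrp4 (2.72 ± 0.59).

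The promoters of the called genes were searched for the TCF/LEF letters ATCAAAG and the SOX letters ACAATGG, on both strands, in the 250 bases before each RefSeq start of GRCm38.p6. The TCF/LEF letters were in 2.61% of 422 genes below the sum and 1.65% of 485 genes above it that had a window, against 2.76% of 9545 tested genes and 3.21% of all 32851 windows. The SOX letters were in 2.61% and 2.06%, against 2.01% and 3.02%. These shares lay near those of all genes. Of the 154 genes looked up by name, 106 had a window, 3 of which held the TCF/LEF letters and 4 the SOX letters. The 2 windows of Cyp11a1, the gene of largest interaction, held neither motif and are not printed. Tnfrsf19 leads the WNT targets, Gstm6 leads the genes lowest in DKO, and Gstm7 is its neighbour, also lowest in DKO. For these 3 genes a window is shown, with matched letters in capitals and written in the direction of its gene. That of Tnfrsf19 is 1 of 2 starts, at chr14:61037988-61038237 on the minus strand, with the TCF/LEF letters beginning 202 bases before the start; the other start had no match.
Tnfrsf19: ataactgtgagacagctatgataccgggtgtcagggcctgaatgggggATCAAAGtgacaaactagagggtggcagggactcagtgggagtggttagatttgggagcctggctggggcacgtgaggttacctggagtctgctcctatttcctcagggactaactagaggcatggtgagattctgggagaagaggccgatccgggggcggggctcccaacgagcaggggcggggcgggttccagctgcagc
Gstm7, at chr3:107931818-107932067 on the minus strand, held the SOX letters beginning 30 bases before the start, and its other window, which overlaps this one, held the same match. Gstm6, at chr3:107953467-107953716 on the minus strand, held neither motif in this or its other 2 windows.
Gstm7: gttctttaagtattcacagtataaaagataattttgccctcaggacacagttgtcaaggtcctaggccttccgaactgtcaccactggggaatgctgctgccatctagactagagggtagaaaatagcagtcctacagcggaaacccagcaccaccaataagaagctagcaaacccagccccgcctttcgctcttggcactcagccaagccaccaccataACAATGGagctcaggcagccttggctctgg
Gstm6: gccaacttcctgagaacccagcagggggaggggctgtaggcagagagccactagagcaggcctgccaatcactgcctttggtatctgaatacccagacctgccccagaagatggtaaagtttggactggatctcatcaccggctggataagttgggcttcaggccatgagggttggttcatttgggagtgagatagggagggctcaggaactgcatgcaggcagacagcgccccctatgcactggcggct
A match is a description of letters in this window only.

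The 55 called genes with all DKO arrays below the 12 other XY arrays were led by Gstm6, by the gap between DKO and the nearest array. Gstm6 encodes a glutathione transferase, an enzyme class that couples glutathione to reactive compounds. Its signal was 1944, 2125, 1915 and 2022 in control, 1495, 1874, 1597 and 1590.4 in Ctnnb1KO, 1373, 1582, 1791 and 1380.1 in Sox9KO, and 216, 205 and 264 in DKO. All 3 DKO arrays were far below the 12 others. The change from control was -0.29 ± 0.11 in Ctnnb1KO (not called), -0.39 ± 0.11 in Sox9KO (adjusted p = 0.00522) and -3.05 ± 0.12 in DKO, and the interaction was -2.37 ± 0.16 (adjusted p = 6.53e-12). Its neighbour Gstm7 read 1311, 1278, 1342 and 1278 in control, 1129, 1364, 1144 and 1050.1 in Ctnnb1KO, 895, 921, 928 and 856 in Sox9KO, and 348, 384 and 460.0 in DKO. The groups were ordered in the same way, with an interaction of -1.0 ± 0.19 (adjusted p = 0.000454), which was no longer called when its probe sets were averaged. Of the 6 Gstm genes measured, all in 1 cluster on chromosome 3, Gstm1 (-0.60 ± 0.16) and Gstm2 (-0.48 ± 0.13) also lay below the sum with DKO lowest, and Gstm5 (-0.63 ± 0.21, adjusted p = 0.0545) and Gstm3 (0.56 ± 0.51, adjusted p = 0.56) were not called. Gstm1 and Gstm2 lost their calls on the unlogged signal. This family was looked at after its values were seen. Its members are close copies that may hybridise to each other's probes, so the values of single members are uncertain.

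Pde8b, a phosphodiesterase gene of steroid-producing tissue, read 379, 388, 372 and 422 in control, 422, 387, 297 and 356 in Ctnnb1KO, 549.6, 469, 696 and 541 in Sox9KO, and 115, 139 and 135 in DKO. Sox9KO was above control while DKO was below every other array, and the interaction was -1.89 ± 0.22 (adjusted p = 5.99e-07). Wfdc1 averaged 381, 425 and 344 in control, Ctnnb1KO and Sox9KO, and 143 in DKO (-1.33 ± 0.22). Gm2a, which encodes the GM2 ganglioside activator, averaged 4660.4, 3572 and 3494 in the same order and 1887 in DKO (-0.50 ± 0.13), and was not called on the unlogged signal (adjusted p = 0.278). AU015836, a gene without a described role, averaged 2434, 1606 and 531, with a lower signal in every DKO array (-1.63 ± 0.36), and turned to 396.4 on the unlogged signal (adjusted p = 0.0440). Id3 was of this class as well, with a mean of 1442 in DKO against 1922 in control and 2840.5 in Sox9KO.

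The 132 called genes with all DKO arrays above the 12 others were led by Myl1, a myosin light chain of striated muscle. Its signal was 18.9, 55.4, 46.3 and 98.4 in control, 216, 89.9, 91.7 and 149 in Ctnnb1KO, 118, 190.0, 142 and 168 in Sox9KO, and 1067, 1273 and 899 in DKO. The single knockouts averaged above control, and each DKO array was far above all others. The interaction was 1.53 ± 0.40 (adjusted p = 0.0105), and it was not called with a pseudocount of 1. Tnnc1, the slow troponin C gene, read 179.6, 229.7, 283 and 258 in control, 515, 324, 346 and 461 in Ctnnb1KO, 182, 154, 146 and 321 in Sox9KO, and 1412, 1920.4 and 1409 in DKO. Control and Sox9KO overlapped, Ctnnb1KO lay just above both, and DKO was clear of all 3, with an interaction of 2.19 ± 0.41 (adjusted p = 0.000355). These were the 2 called members of 8 measured striated muscle genes, whose median was 0.55 in XY and 0.59 in XX gonads. Myh8 was called above the sum on the unlogged signal (adjusted p = 0.0016) and with a pseudocount of 64 (0.0437). It was called too without XY Ctnnb1KO replicate 1 or 2, or XY Sox9KO replicate 1 or 2. Tnnt1 was called without XY control replicate 4 (0.0461) or XY DKO replicate 4 (0.014). The summed striated muscle signal was 1752 to 2815 in control, 2101 to 3968 in Ctnnb1KO, 2552 to 3707 in Sox9KO and 5062 to 8431 in DKO. Acta1, Ckm, Myog, Tnnt3 and Ttn did not pass the filter. The part of other tissue in Myl1 and Tnnc1 was not tested.

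Nupr1, a stress-induced nuclear protein gene, read 216, 164, 127 and 199.7 in control, 212, 235, 204 and 275 in Ctnnb1KO, 147, 120.0, 92.8 and 151 in Sox9KO, and 1027, 1282 and 974 in DKO. DKO stood above all other arrays, and the interaction was 2.58 ± 0.48 (adjusted p = 0.000329). Cnmd encodes chondromodulin, a cartilage glycoprotein. Its signal was 195, 203, 180.4 and 242 in control, 302, 259.8, 202 and 257 in Ctnnb1KO, 18.4, 15.4, 34 and 29.8 in Sox9KO, and 666, 804 and 842 in DKO. Sox9KO was far below control and DKO far above it, so the departure of 4.01 ± 0.45 (adjusted p = 2.77e-07) crosses the control level. Prune2 (1.69 ± 0.28), Ky (2.67 ± 0.39) and 6030498E09Rik (2.49 ± 0.35) joined Myl1, Tnnc1 and Nupr1 as the 6 genes with the widest gaps. Pnmt, the adrenaline-forming enzyme gene, was chosen after its values were seen. It averaged 164 in control, 89.8 in Sox9KO and 704 in DKO (2.34 ± 0.27). Macrophage and leukocyte genes were higher in summed signal in DKO (11332 to 13666) than in control (5626 to 7571) or Sox9KO (6315 to 6917), and Ctnnb1KO (6590.1 to 11257) nearly reached the DKO range. Of the measured members, 1 of 13, C1qb (0.72 ± 0.22), had a called interaction, and it lost that call in 9 of 15 omissions of 1 XY array (adjusted p of up to 0.142) and with the mean of probe sets. With XY arrays alone, Aif1 and Tyrobp were called above the sum as well (adjusted p = 0.0304 and 0.0378). On the unlogged signal both were called too (0.0431 and 0.0363). Aif1 was further called with a pseudocount of 64 (0.0496) and without XY Ctnnb1KO replicate 1, XY control replicate 2 or XY control replicate 4. Tyrobp was also called with the replicate block (adjusted p = 0.0393) and without XY Ctnnb1KO replicate 1 (0.0146).

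**Figure D3:**
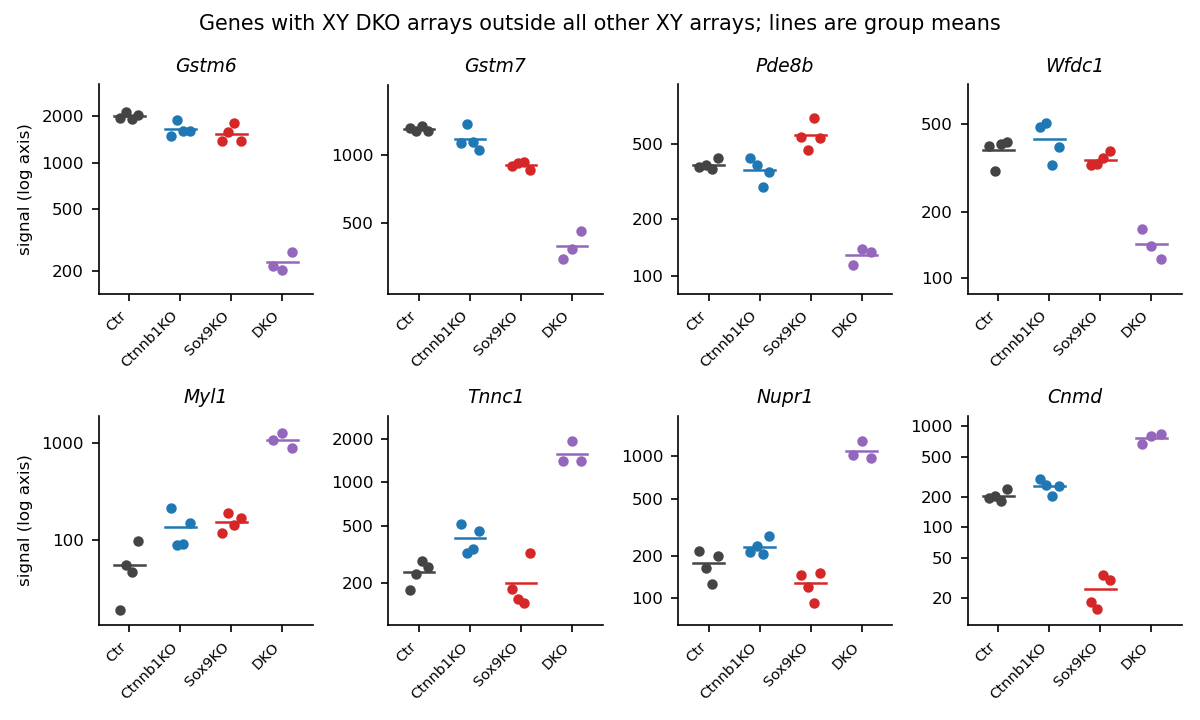
Signal per XY array (vertical axis, log scale) of 8 genes whose DKO arrays lie outside all 12 other XY arrays; points are arrays and lines are group means. DKO is lowest for Gstm6, Gstm7, Pde8b and Wfdc1 and highest for Myl1, Tnnc1, Nupr1 and Cnmd.

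Further genes with the largest departures stand outside the lists. Above the sum were Pmaip1, a cell death regulator (4.12 ± 0.37), Gsta2, another glutathione transferase (3.97 ± 0.29), the secreted cerebellin genes Cbln1 (3.91 ± 0.32) and Cbln4 (3.04 ± 0.27), the BMP and WNT antagonist gene Sostdc1 (3.31 ± 0.38) and the chemokine gene Ccl17 (3.20 ± 0.47). Pmaip1 averaged 843, 14.7 and 508 in control, Sox9KO and DKO, and Sostdc1 3651, 49.3 and 541. Ccl17 turned negative on the unlogged signal (-761.3, adjusted p = 0.0265), where its Ctnnb1KO mean of 2751 exceeded the control mean of 1507. Calb1, a calcium-binding protein gene, had the largest departure downward. Its signal was 10.6, 1.3, 4 and 12.7 in control, 17.6, 14.6, 17.6 and 2.3 in Ctnnb1KO, 824, 761, 1069 and 801 in Sox9KO, and 29.2, 35.7 and 53.5 in DKO. It was high in Sox9KO, and DKO was close to background though above every control and Ctnnb1KO array (-4.31 ± 0.38, adjusted p = 1.9e-09). The homeobox gene Dlx3 read 7.8, 6.8, 9.3 and 7.4 in control, 12.2, 9.3, 5.5 and 15.1 in Ctnnb1KO, 231, 262, 202 and 216 in Sox9KO, and 10.9, 7.5 and 4.2 in DKO. DKO overlapped control here and Sox9KO was above all other arrays (-3.52 ± 0.38, adjusted p = 8.89e-08). Ablim3 (-3.86 ± 0.49), Tmem171 (-3.43 ± 0.48), Trim66 (-3.24 ± 0.39), Tmem174 (-3.14 ± 0.49), Insyn2b (-3.06 ± 0.26), Phlda2 (-3.00 ± 0.49), Chit1 (-2.94 ± 0.42), Majin (-2.89 ± 0.72), Cfap54 (-2.78 ± 0.35) and Lypd4 (-2.84 ± 0.85) followed. Majin and Lypd4 were not called on the unlogged signal. Lypd4 lost its call in 5 of 15 omissions of 1 XY array, with an adjusted p of up to 0.0868.

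The remaining lists had fewer called members. FGF signalling and feedback genes gave 4 of 12 above the sum and 1 below, led by Etv5, and proliferation genes 1 of 12 above (Cdk1, 0.61 ± 0.17), with medians of 0.33 and 0.12. The proliferation count is near the 5.28% of all genes called above. The FGF genes Fgfr1, Spred2 and Dusp6 lost their calls in 4, 4 and 5 single omissions, and Cdk1 in 3. Fgfr1 and Spred2 also lost theirs with the mean of probe sets, and Dusp6 with XY arrays alone and on the unlogged signal. Immediate early and heat shock genes gave 3 of 7 above: Egr1 (1.36 ± 0.18), Hspa1b (1.42 ± 0.28) and Hspa1a (1.01 ± 0.31), the last losing its call in 7 single omissions and both heat shock genes on the unlogged signal. The summed signal of this whole list was 6301 to 6766 in control, 2716 to 3407 in Sox9KO and 5087 to 5409 in DKO. Endothelial genes gave 0 of 16 (median -0.08), granulocyte genes 0 of 7 (median -1.07) and erythroid genes 0 of 7 (median -0.52). Granulocyte sums overlapped widely, at 898 to 6007 in control, 4123 to 33389.9 in Ctnnb1KO, 4408 to 12785 in Sox9KO and 5455 to 19721 in DKO. Of surface epithelium genes, the keratins Krt8 (-1.09 ± 0.23) and Krt18 (-1.06 ± 0.18) of 7 lay below the sum. Lhx2 of this list was called below it only in alternatives. These were the unlogged signal (adjusted p = 0.0105), a pseudocount of 64 (0.0199), no trend (0.0465) and the mean of probe sets (0.0485). The others left out XY Ctnnb1KO replicate 3, XY control replicate 1 or XY DKO replicate 3. Of 3 measured mesonephric genes, Lhx1 lay above (2.45 ± 0.43), Emx2 below (-0.72 ± 0.21), and Pax8 was not called (-0.57 ± 0.37); Emx2 lost its call in 5 single omissions.

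**Figure D4:**
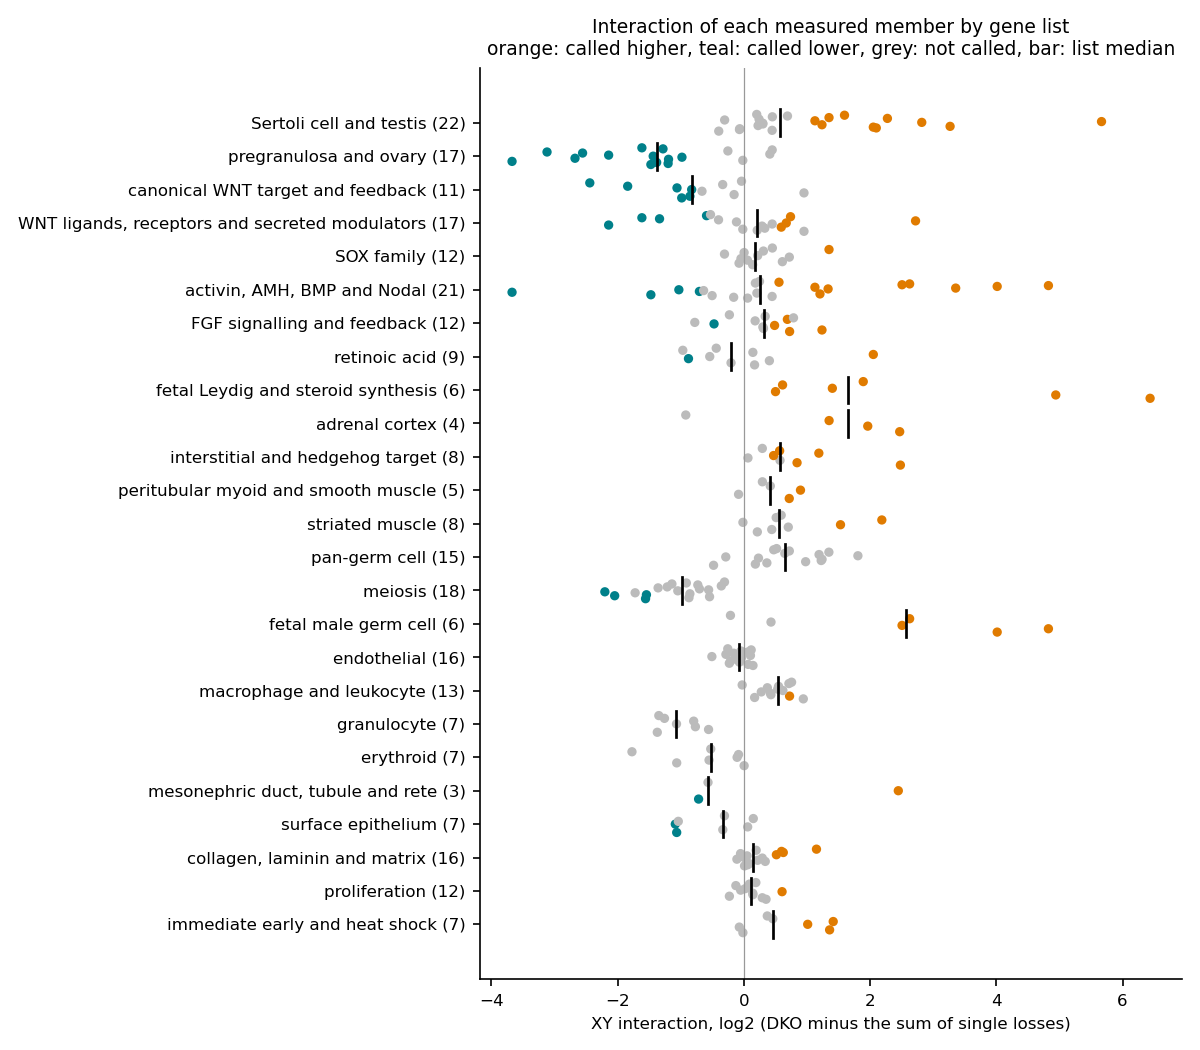
XY interaction (horizontal axis, log2) of every measured member of 25 gene lists, with the number of members in brackets; orange points are called above the sum, teal points called below, grey points not called, and bars are list medians. Fetal Leydig genes reach 6.44 and pregranulosa genes -3.67, while endothelial genes stay near 0.

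The same interaction was computed in XX gonads. There 0 of 11779 genes were called by limma (0%), with 472 at an unadjusted p under 0.05, and the median was 0.01. Sox9 signal in XX control was 174.3, 11.7, 119 and 174, against 839.7 to 1024.9 in XY control. With so little Sox9 to lose, an XX interaction near 0 was likely beforehand. The XY minus XX difference then largely repeats the XY interaction, and says little about sex itself. The difference between the XY and the XX interaction was tested directly and was called for 447 genes (3.79%), 254 higher in XY and 193 lower. Without XX Ctnnb1KO replicate 4 this count was 450. The 6 genes of lowest adjusted p were Lefty2, Fst, Tnfrsf19, Inhba, Hsd17b3 and Thbd. For Lefty2 the XY interaction exceeded the XX one by 4.77 ± 0.32 (adjusted p = 4.01e-11), and for Hsd17b3 by 5.69 ± 0.51. The XY minus XX difference was -3.65 ± 0.26 for Fst and -2.29 ± 0.19 for Tnfrsf19, and 3.58 ± 0.30 for Inhba and 2.78 ± 0.26 for Thbd, the thrombomodulin gene.

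In XX gonads the DKO means of Lefty2 and Fst lay near those of Ctnnb1KO. Lefty2 averaged 74.6 ± 11.3 in XX control, 2093 ± 366 in Ctnnb1KO, 76.1 ± 9.42 in Sox9KO and 2202 ± 317 in DKO (SD, n = 4 each). Fst ran in the opposite direction, at 3142 ± 323, 222 ± 23.1, 3378 ± 304 and 237 ± 40.2 in the same order. XY Ctnnb1KO differed little from XY control for the same 2 genes, at 1512 ± 240.2 against 1647 ± 203 and 89.9 ± 20 against 66.4 ± 8.39. Gstm6 and Myl1, whose XY DKO arrays lay outside all other XY arrays, averaged 1497 and 145 in XX control and 359 and 1088 in XX Ctnnb1KO, against XY DKO means of 228 and 1079.6. The difference between the XY and XX interactions was called for Gstm6 (-2.27 ± 0.22, adjusted p = 5.94e-08) and not for Myl1 (1.08 ± 0.55, adjusted p = 0.353). Cyp11a1 stayed much lower in XX, with 245 in XX Ctnnb1KO and 193 in XX DKO against 2665 in XY DKO. This difference was called for 3.79% of all genes. By list it was called for 9 of 22 Sertoli and testis, 13 of 17 pregranulosa, 4 of 11 WNT target and 4 of 6 Leydig genes. It was also called for 9 of 21 activin, AMH, BMP and Nodal genes and 6 of 17 WNT ligands, receptors and modulators. Lists with 0 calls included striated muscle (0 of 8), FGF signalling (0 of 12), pan-germ cell (0 of 15) and macrophage genes (0 of 13).

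**Figure D5:**
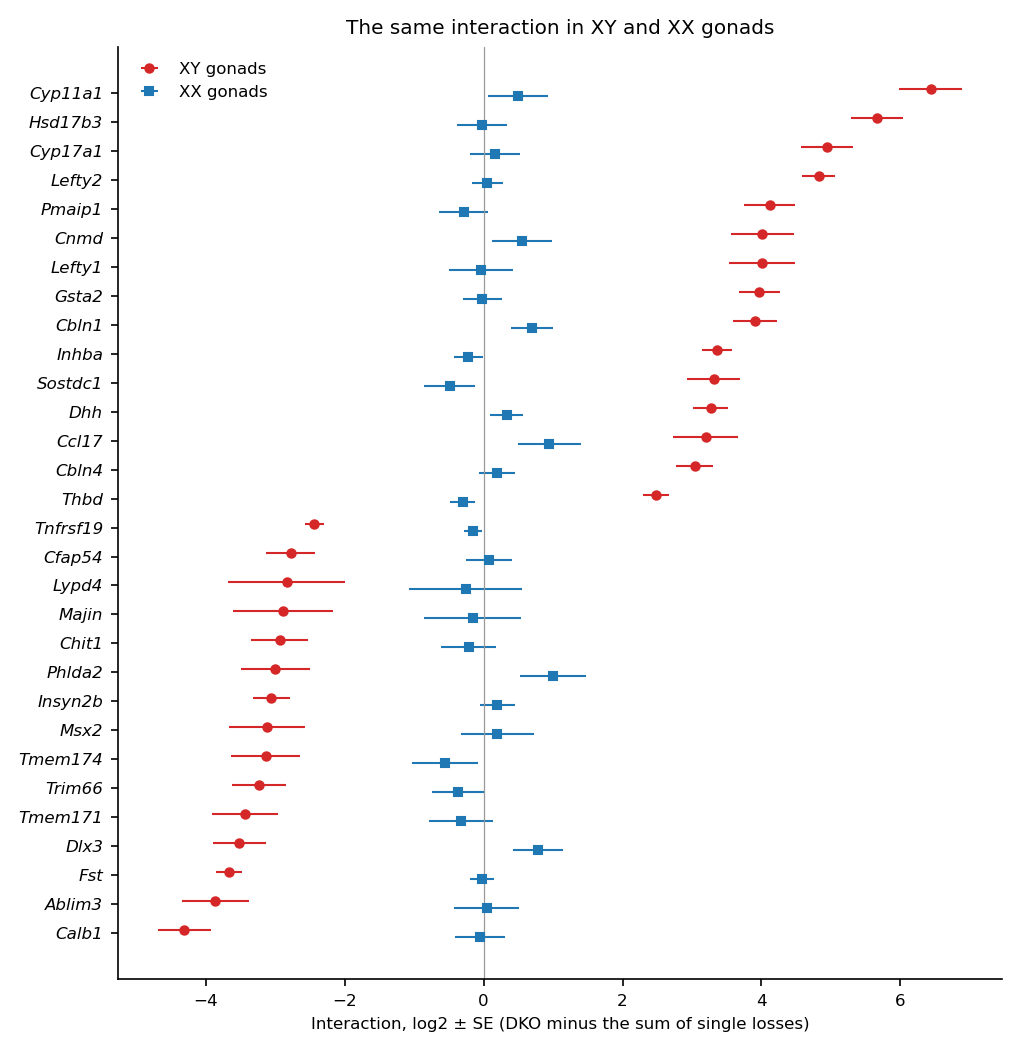
Interaction in XY (red circles) and XX gonads (blue squares) on the log2 scale, with SE, for the 28 genes of largest XY interaction and 2 more of the lowest adjusted p for the difference between XY and XX. XY values lie between -4.31 and 6.44, and XX values between -0.56 and 1.0.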

How the data were processed

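The deposited values are 1-colour signal intensity per probe set. Per the submitters' processing notes they come from MAS5, with no version given in the sources used here. Per the labels' protocols, 40 ng of total RNA was amplified and labelled with biotin, which can favour transcript ends. The trimmed mean of each array is 500. Of 45037 probe sets without 64 controls, 34945 have 1 gene symbol, 932 several and 9160 none by the platform annotation; 34741 matched RefSeq identifiers and 204 kept the platform name. The probe set of highest mean over all arrays stood for each of 18193 genes, and 11779 genes above their array's median on at least 3 arrays were kept. All 31 arrays entered 1 limma fit (3.58.1, R 4.3.3) of 8 group means on log2(signal + 16), with eBayes, a trend, 23 residual degrees of freedom and no replicate block. The fit was tested on simulated data. Genes named are Sox9 and Ctnnb1, the 14 largest called interactions in each direction with a group mean above the median signal and without predicted genes, up to 4 members per list by adjusted p and others needed to say which did not pass, up to 6 genes of widest gap above and below, and 6 by the XY minus XX test; others are said to be chosen on their values. Genes, lists and tests were chosen with earlier results of these data known. Alternatives were quantile normalization, pseudocounts of 1 and 64, other filters, XY arrays alone, the replicate block, unlogged signal, mean of probe sets, no trend, and leaving out each XY array or XX Ctnnb1KO replicate 4.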

Additional observations from a re-analysis of the deposited data

Results flagged for a closer look

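In XY Ctnnb1KO, replicate 1 was the highest for Cyp11a1, at 10363 against 7484 to 7907 in the other 3 arrays, and for Cyp17a1, at 20699.7 against 12134 to 13244. The gap to the next array was most of the range of the group. Of 99 groups of 4 arrays checked for the genes whose arrays are listed, 2 stood out in this way, and chance flags about 1 in 20.

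The XY and XX interactions differed for 447 genes by the limma test of the difference itself, which largely repeats the XY interaction. Among them the XY interaction was higher by 5.69 for Hsd17b3, 4.77 for Lefty2, 3.58 for Inhba and 2.78 for Thbd. The difference was -3.65 for Fst and -2.29 for Tnfrsf19.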

How the results depend on the processing

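The number of XY interactions called stayed within 1.5 times of 1152 under each alternative run. It was 1080 after quantile normalization, 1133 and 1164 with pseudocounts of 1 and 64, 1113 without a filter, 1039 with a filter on 12 arrays, 1147 with XY arrays alone, 1129 on unlogged signal, 1130 with the mean of probe sets and 1139 without a trend. Leaving out 1 XY array, or XX Ctnnb1KO replicate 4, gave 962 to 1272 calls. The XX interaction had 0 calls in every setting run, and the difference between XY and XX 396 to 476. With the replicate block, 1142 interactions were called, 1087 of them shared with the main result, 0 in XX and 444 for the difference. Same-numbered XY arrays deviated together weakly or not at all (correlations of -0.304 to 0.25). Differently numbered arrays were not compared, so whether the numbers pair arrays was not settled. Of 103 called genes named or listed, 76 held in every setting that tested them (the filter on 12 arrays tested 90), 24 lost the call in at least 1, and 3 turned direction on unlogged signal: Ccl17 to -761.3, Star to -330.2 and AU015836 to 396.4. The uncalled Aard turned to 1069 there. Among all called genes, 4 had the opposite sign on unlogged signal and 9 with the mean of probe sets.

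With 3 DKO arrays the error is largest on the DKO side. Genes near background, such as Cyp11a1 or Calb1, have their sizes set in part by the pseudocount. Probe sets of close gene copies were not separated. Loss of each gene in each cell type, and cell numbers, were not measured.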
